A study of Mus musculus with 130 samples.

Results

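The BXD strains were set against classical inbred strains of mouse in a liver RNA-seq panel of males fed a high-iron diet. BXD strains were the libraries whose strain name begins with BXD, 55 strains among the 130 libraries of the series after BXD65/RwwJ was left out. The other set held the 31 strains whose names do not begin with BXD, AXB, BXA, BXH or CXB, called classical strains here, and it included C57BL/6J and DBA/2J, the parents of the BXD lines. Each strain gave 1 male mouse, and 1 of the 2 mice of 129X1/SvJ was used. All of these mice ate chow for 4 weeks and then 2% carbonyl iron (20000 ppm) for 6 weeks, so every value describes an iron-fed liver, and no group on another diet was compared. The labels used here give no age, housing or library batch. 27 BXD strains carried the suffix Ty or TyJ and 28 the suffix RwwJ, and 1 of them, BXD24/TyJ-Cep290<rd16>/J, carries a mutation in Cep290. With 1 mouse a strain, the spread between strains holds differences between genotypes and between individual mice, which cannot be told apart, and p-values refer to that spread. The tests treated each strain as an independent replicate. All BXD lines descend from the same 2 parents, and some classical strains are related to each other. The p-values can therefore be too small for a claim about strain sets in general.

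Recombinant inbred strains are made by crossing a pair of inbred parents and inbreeding the mixed offspring, so that each line is fixed at nearly every locus for the allele of 1 or the other parent. A BXD panel therefore segregates only the differences between C57BL/6J and DBA/2J, while classical strains draw on several ancestral populations and carry many more alleles. At a locus where the parents differ, the lines divide into groups of carriers, and at a locus where they share an allele that other strains lack, all lines are alike. In liver, such panels are used to map genes that control iron handling, lipid metabolism and drug metabolism.

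The tables gave an estimated read count for 35711 genes. Library totals ran from 9407880 to 20572879 counts in the BXD strains (median 12496634) and from 9864422 to 13441467 in the classical strains (median 11645729), and 13620 genes passed the filter on low counts. All levels below are CPM (read counts scaled to the effective library size) unless another scale is named, and CPM does not correct for gene length. The summed CPM of 8 hepatocyte genes had a median of 112600.0 in BXD strains and 120100.0 in classical strains. Kupffer cell genes summed to 173.2 to 709.1 CPM in the classical strains and 197.2 to 672.1 CPM in the BXD strains. Genes of red blood cells reached 2663.0 CPM in BTBR T<+> tf/J, and genes of the exocrine pancreas reached 211.8 CPM in BALB/cJ against a median of 6.839 CPM in the classical set. In these bulk samples, fewer cells of a type and less RNA per cell cannot be told apart. The first principal component of log2 CPM held 14.8% of the variance, and NZB/BlNJ, BTBR T<+> tf/J and FVB/NJ lay at 1 end of it, so results that rest on them are also given without them.

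The 2 sets were first compared in level. 2380 genes (17.5% of 13620) differed at an adjusted p under 0.05 in edgeR's quasi-likelihood test with Benjamini-Hochberg adjustment over all genes. Of these, 984 (7.22% of all genes tested) were higher in the BXD strains and 1396 (10.2%) lower. 174 of them differed by more than 2-fold, 62 of these higher in BXD strains, and the median difference over all genes was −0.015 on the log2 scale. The split between directions depended on the scale of the test: 41.3% of calls were higher here, 52.9% of 1739 calls by a Welch test on log2 CPM, and 70.2% of 1526 calls by limma on log2(TPM + 1). Differences below are BXD minus classical on the log2 scale of fitted counts, with their standard error (SE).

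Genes induced by interferon were higher in the BXD strains. 20 of 28 listed interferon genes were higher in the BXD strains (7.22% of all genes were) and none lower, with a median log2 difference of 0.595 where the median over all genes was −0.015, and all 28 differences were positive. Ifit3 (chr19:34583531-34588731, plus strand, in GRCm38), an antiviral protein with tetratricopeptide repeats, ranged from 2.85 to 134 CPM with a median of 17.4 in BXD strains and from 0.843 CPM (RIIIS/J) to 44.9 CPM (C57BL/6J) with a median of 7.19 in classical strains. The ranges overlapped, yet the BXD median was above the classical median, and the difference was 1.09 ± 0.25 (edgeR adjusted p = 0.00120). Mx1, a GTPase that blocks influenza virus and is defective in most laboratory strains, lay at 1.29 to 18.9 CPM with a median of 3.68 in BXD strains and at 0.419 CPM (SWR/J) to 6.30 CPM (SEA/GnJ) with a median of 1.81 in classical ones (0.86 ± 0.18, adjusted p = 0.000295). Further members above the threshold were Gbp6 (1.03 ± 0.22, adjusted p = 0.000548), Ifit1 (0.99 ± 0.27, 0.00710), Ifi44 (0.91 ± 0.25, 0.00647) and Gbp3 (0.87 ± 0.18, 0.000442). Irf7, a transcription factor of the response, was higher too, by 0.71 ± 0.17 (adjusted p = 0.00236).

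The parents stood high within the classical set. C57BL/6J was the highest classical strain for Ifit1 (102 CPM), Ifit3 (44.9 CPM), Isg15 (25.6 CPM) and Irf7 (184 CPM). The mean log2 CPM of the 28 genes was 5.418 in C57BL/6J and 4.595 in DBA/2J, against a classical median of 3.559 and a lowest value of 1.689 in SWR/J. BXD strains ran from 2.941 (BXD27/TyJ) to 6.051 (BXD38/TyJ) with a median of 4.373 on that scale, below both parents, and 4 of 55 lay under the classical median. With both parents taken out of the classical set, 24 of the 28 genes were higher in BXD strains. The count fell to 9 with the RwwJ strains alone and was 16 with the Ty and TyJ strains alone, where fewer strains enter. It was 15 without NZB/BlNJ, BTBR T<+> tf/J and FVB/NJ. Kupffer cell genes had a median sum of 397.0 CPM in BXD and 313.6 CPM in classical strains, and lymphocyte genes 5.558 and 4.862 CPM. Their part in the interferon result was not tested.

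Genes of the major histocompatibility complex (H2 genes) and B2m also differed, mostly with higher values in the BXD strains. The list goes by gene name and holds H2-Ke6, which is not a class I gene. Of 23 listed genes (H2 genes and B2m), 9 were higher in BXD strains and 2 lower, with a median difference of 0.406. Over all genes tested, 7.22% were higher and 10.2% lower, so the 2 lower calls are near that share. B2m, the shared light chain of class I molecules, ranged from 655 to 1429 CPM with a median of 1031 in BXD strains and from 318 CPM (NZB/BlNJ) to 1186 CPM (C57BLKS/J) with a median of 740.4 in classical strains (0.44 ± 0.07, edgeR adjusted p = 5.65e-06). H2-D1 and H2-K1, which present peptides to cytotoxic T cells, differed by 0.52 ± 0.09 (adjusted p = 5.68e-06) and 0.63 ± 0.19 (adjusted p = 0.0122). Among the non-classical genes, H2-Q7 was higher by 1.15 ± 0.23 (adjusted p = 0.000128) and H2-T22 by 0.95 ± 0.18 (adjusted p = 4.91e-05). H2-T10 was lower (−1.06 ± 0.19, adjusted p = 3.99e-05), and H2-Q1 was lower as well (−1.12 ± 0.24, adjusted p = 0.000386). The H2-Q1 call was absent from the Welch comparison and from the fits on TPM. H2 genes are highly polymorphic and similar to each other, and reads were counted against 1 reference sequence. How far alleles unlike that reference lost reads or passed them to a neighbouring gene was not tested.

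Among genes of cholesterol synthesis, calls were in 1 direction. 9 of 24 listed genes were higher in BXD strains (7.22% of all genes were) and none was lower. All 24 differences were positive, with a median of 0.426. Fdps, which makes farnesyl diphosphate (chr3:89093588-89101959, minus strand), ranged from 41.97 to 561 CPM with a median of 216 in BXD strains and from 10.1 CPM (NZB/BlNJ) to 379 CPM (DBA/2J) with a median of 114 in classical strains. 5 classical strains were at or above the BXD median, and the difference was 0.75 ± 0.20 (edgeR adjusted p = 0.00657). Sqle, the squalene epoxidase, differed by 0.58 ± 0.20 (adjusted p = 0.0330), a call lost without NZB/BlNJ (adjusted p = 0.051). DBA/2J was the highest classical strain for Fdps, Sqle (202.1 CPM), Pmvk (51.5 CPM) and Hsd17b7 (197 CPM). The BXD strains lay mostly under the midpoint of their parents for Sqle, 12 above it and 43 below. 4 of the 24 genes were called without NZB/BlNJ, BTBR T<+> tf/J and FVB/NJ, 1 with the RwwJ strains alone and 6 with the Ty and TyJ strains alone, and 16 were called without the parents.

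Of the 13 protein genes of the mitochondrial genome, 8 were higher in BXD strains (7.22% of all genes were) and none was lower. Their median difference was 0.192. mt-Nd3 encodes a subunit of respiratory complex I (chrM:9459-9806, plus strand). It ranged from 30.2 to 121 CPM with a median of 65.5 in BXD strains and from 8.36 CPM (SJL/J) to 90.7 CPM (A/J) with a median of 27.03 in classical strains. C57BL/6J had 86.6 CPM and DBA/2J 30.4 CPM, the lowest BXD value being close to that of DBA/2J. The difference of 0.90 ± 0.13 (edgeR adjusted p = 4.70e-07) was the largest of the 13. The other called genes were mt-Nd2 (0.26 ± 0.07), mt-Nd1 (0.25 ± 0.07), mt-Atp6 (0.24 ± 0.07), mt-Co1 (0.21 ± 0.06), mt-Nd5 (0.20 ± 0.06), mt-Nd4 (0.19 ± 0.06) and mt-Nd6 (0.18 ± 0.07), with adjusted p-values between 0.00488 and 0.0421. The call of mt-Nd6 was lost in 13 of 31 fits that each left out 1 classical strain, up to an adjusted p of 0.0706 without BTBR T<+> tf/J. mt-Co2 (−0.02 ± 0.11), mt-Atp8 (−0.06 ± 0.09), mt-Co3 (0.09 ± 0.07), mt-Nd4l (0.15 ± 0.06) and mt-Cytb (0.16 ± 0.07) did not pass. With the RwwJ strains alone 3 of the 13 were called, and with the Ty and TyJ strains alone 4. Mitochondrial genes are cut from long shared transcripts and so are not independent of each other. Y-linked genes gave no call in level, with Ddx3y at 0.01 ± 0.05 (adjusted p = 0.922), Uty at −0.08 ± 0.06 (0.388), Eif2s3y at 0.04 ± 0.05 (0.640) and Kdm5d at −0.05 ± 0.05 (0.553).

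**Figure D1:**
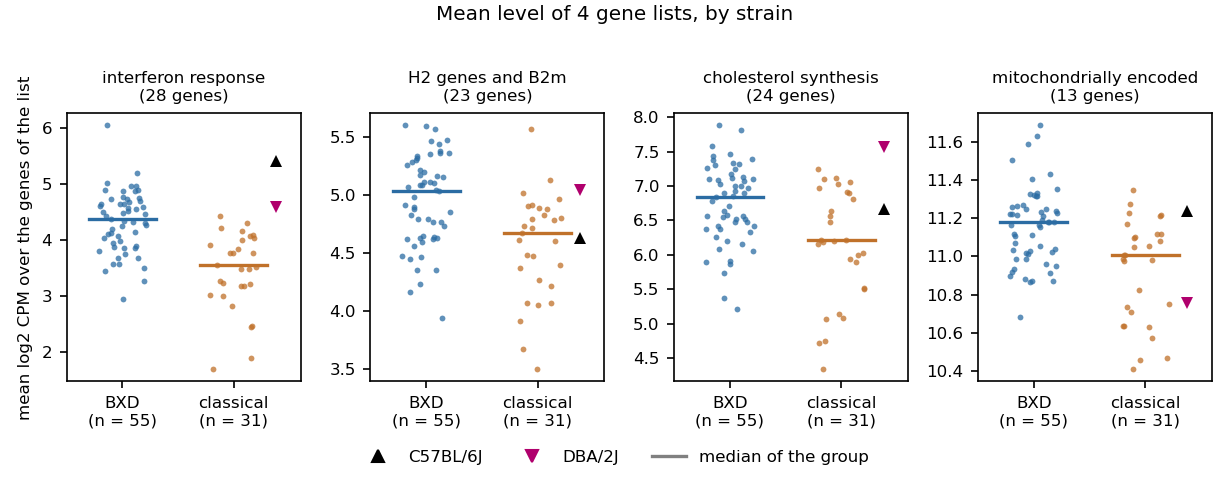
Mean log2 CPM of 4 gene groups in each strain, BXD strains beside classical strains, 1 point a strain, with C57BL/6J and DBA/2J drawn as triangles in the classical column. The interferon panel shows the BXD median at 4.373 and the classical median at 3.559, with both parents (5.418 and 4.595) in the upper range of the classical strains, and the groups overlap in every panel.

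Iron genes were compared next, since all mice had been loaded with iron. Hepcidin, the liver hormone that limits iron entry into blood, is made from Hamp, and its transcription answers to iron through Bmp6 and the co-receptor hemojuvelin. Mice carry a second gene, Hamp2, beside Hamp. Of 33 iron genes tested, 2 were higher in BXD strains, 3 were lower and 28 were not called, with a median difference of −0.026. These counts are near the shares over all genes (7.22% higher and 10.2% lower). Hamp ranged from 542 to 1357 CPM with a median of 839 in BXD strains and from 238 CPM (DBA/2J) to 1239 CPM (129X1/SvJ) with a median of 852 in classical strains, a difference of 0.01 ± 0.09 (edgeR adjusted p = 0.970). DBA/2J had the lowest Hamp of the classical strains (238 CPM), C57BL/6J had 823 CPM, and all 55 BXD strains lay above the midpoint of the parents. Bmp6, the endothelial ligand that induces Hamp, ranged from 7.33 to 36.6 CPM with a median of 23.9 in BXD strains and from 5.79 CPM (PL/J) to 44.7 CPM (C58/J) with a median of 23.8 in classical strains (−0.03 ± 0.12, adjusted p = 0.908). Of 11 genes of the BMP and SMAD pathway, 1 was called in level (17.5% of all genes were). It was Smad5, a transducer of BMP signals (−0.09 ± 0.03, adjusted p = 0.0222).

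Hamp2 was higher in the BXD strains. Hamp (chr7:30942368-30944032, minus strand) and Hamp2 (chr7:30922372-30924681, minus strand) are close copies, and how reads were divided between them is uncertain. Hamp2 ranged from 65.4 to 3113 CPM with a median of 281 in BXD strains and from 27.2 CPM (BTBR T<+> tf/J) to 2865 CPM (NZW/LacJ) with a median of 100.5 in classical strains, a difference of 1.83 ± 0.44 (edgeR adjusted p = 0.00212). The parents differed, with 113 CPM in C57BL/6J and 1044 CPM in DBA/2J. The BXD strains were parted by an empty interval, 31 strains at or under 402 CPM and 24 at or over 914.1 CPM, whereas 28 classical strains lay at or under 535.9 CPM and 3 at or over 1044 CPM. 15 BXD strains were more than 2-fold above both parents. A larger spread of Hamp2 among BXD strains passed the threshold narrowly (adjusted p = 0.0459) and was lost in 43 of 86 fits that each left out 1 strain, among them the one without A/J (adjusted p = 0.0687).

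3 of the iron genes were lower in BXD strains, and Hfe2 was higher. Trf, which encodes transferrin, the carrier of iron in plasma, ranged from 9027 to 37127 CPM with a median of 18781 in BXD strains and from 12010.3 CPM (C57BLKS/J) to 54153 CPM (NOD/ShiLtJ) with a median of 27348 in classical strains (−0.50 ± 0.12, edgeR adjusted p = 0.00131). The parents lay in the lower range, C57BL/6J at 20284 CPM and DBA/2J at 18316 CPM. Hfe2, the gene of hemojuvelin, was higher by 0.34 ± 0.08 (adjusted p = 0.000979). Tfrc, the transferrin receptor, differed by −0.64 ± 0.23 (adjusted p = 0.0392), and Epor, the erythropoietin receptor, by −0.42 ± 0.15 (adjusted p = 0.0360). Both of these calls were lost without FVB/NJ, NZB/BlNJ or BTBR T<+> tf/J, NOR/LtJ or LG/J, and that of Tfrc also without AKR/J. The largest adjusted p was 0.101 for Tfrc (without FVB/NJ) and 0.138 for Epor (without BTBR T<+> tf/J). BTBR T<+> tf/J had the highest Epor (8.75 CPM) and the highest sum of red blood cell genes. The part of those cells in the Tfrc and Epor values was not tested.

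5 of 23 targets of NRF2, the regulator of the oxidative stress response, were lower and none higher in edgeR. Over all genes tested, 10.2% were lower and 7.22% higher. The split among the 23 targets depended on the test, with 3 higher and 5 lower in DESeq2. It was 1 higher and 2 lower in the Welch comparison, and 3 higher and 2 lower by limma on log2(TPM + 1). Gclm, the regulatory subunit of the enzyme that begins glutathione synthesis, ranged from 146 to 301 CPM with a median of 219 in BXD strains and from 195 CPM (DBA/2J) to 476.3 CPM (NZW/LacJ) with a median of 293 in classical strains (−0.42 ± 0.06, edgeR adjusted p = 2.19e-07). Gclc, the catalytic subunit, was lower by a smaller margin (−0.37 ± 0.09, adjusted p = 0.00212), and so was Txnrd1, a thioredoxin reductase (−0.17 ± 0.05, adjusted p = 0.0167, and 0.0512 without NZW/LacJ). The glutathione transferases Gsta1 (−1.15 ± 0.34, adjusted p = 0.0116) and Gsta2 (−0.81 ± 0.24, adjusted p = 0.0141) were highest in NZB/BlNJ, and neither call was kept without NZB/BlNJ, BTBR T<+> tf/J and FVB/NJ (adjusted p = 0.384 and 0.147). Without those strains 2 of the 23 genes were called lower. 4 of 20 fibrosis genes were lower, where 10.2% of all genes were. They were the basement membrane collagens Col4a2 (−0.43 ± 0.11, adjusted p = 0.00313) and Col4a1 (−0.39 ± 0.12, 0.0124), Col5a2 (−0.39 ± 0.14, 0.0421) and the receptor Pdgfrb (−0.27 ± 0.10, 0.0490). The call of Pdgfrb was lost in 16 of 31 fits that each left out 1 classical strain, up to an adjusted p of 0.14 without KK/HlJ, and that of Col5a2 in 13, up to 0.0796 without SJL/J. Without NZB/BlNJ, BTBR T<+> tf/J and FVB/NJ 2 of the 20 were lower and 1 was higher, and with the RwwJ strains alone none was called.

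3 of 20 acute-phase genes were higher (7.22% of all genes were), all of them orosomucoids, which are plasma glycoproteins released by the inflamed liver. Orm3 differed by 1.67 ± 0.33 (edgeR adjusted p = 0.000141), Orm2 by 1.36 ± 0.47 (adjusted p = 0.0325) and Orm1 by 0.73 ± 0.23 (adjusted p = 0.0182). Orm2 had a highest value of 557 CPM among BXD strains against a median of 10.6. These genes are close copies of each other, and how reads were divided between them is uncertain. 8 of 17 proliferation genes were lower in BXD strains (10.2% of all genes were), Mki67 among them (−1.21 ± 0.33, adjusted p = 0.00635). BTBR T<+> tf/J was the highest strain for Mki67 (171 CPM), Top2a (51.6 CPM) and Cdk1 (10.1 CPM). Without NZB/BlNJ, BTBR T<+> tf/J and FVB/NJ the list had no lower call and 1 higher, and its median moved from −0.672 to 0.014. No member of the list was called by the Welch comparison or on the log2(TPM + 1) scale.

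Cytochrome P450 genes of families 2, 3 and 4, which oxidise drugs, steroids and fatty acids, had 5 higher and 5 lower calls among 53, near the shares over all genes (7.22% and 10.2%). Without NZB/BlNJ, BTBR T<+> tf/J and FVB/NJ there were 1 higher and 5 lower calls, and with the Ty and TyJ strains alone 0 and 3. Higher ones were Cyp4a31 (0.75 ± 0.23, edgeR adjusted p = 0.0157), Cyp2c68 (0.49 ± 0.18, 0.0491), Cyp2r1 (0.46 ± 0.17, 0.0425), Cyp2a12 (0.45 ± 0.16, 0.0352) and Cyp4b1 (0.44 ± 0.11, 0.00188). Over 31 fits that each left out 1 classical strain, the call was lost in 24 for Cyp2c68 (up to an adjusted p of 0.0738 without NZB/BlNJ), in 15 for Cyp2r1 (0.0635 without NZW/LacJ) and in 4 for Cyp2a12 (0.0541 without NZB/BlNJ). Cyp2c39 ranged from 1.37 to 463 CPM with a median of 15.8 in BXD strains and from 3.43 CPM (BTBR T<+> tf/J) to 1079.9 CPM (A/J) with a median of 399 in classical strains (−1.63 ± 0.45, adjusted p = 0.00743). C57BL/6J had 6.46 CPM of Cyp2c39 and DBA/2J 95.7 CPM, both under the classical median. The other lower genes were Cyp2c38 (−0.44 ± 0.16, 0.0467), Cyp3a16 (−1.68 ± 0.33, 0.000106), Cyp3a41b (−1.87 ± 0.56, 0.0128) and Cyp3a41a (−2.37 ± 0.62, 0.00426). Cyp3a41a reached 493 CPM in CE/J and was not called without that strain (−1.52, adjusted p = 0.0628). Cyp3a41b also lost its call without CE/J (−0.58, adjusted p = 0.479), and Cyp3a16 without BALB/cJ (−0.386, adjusted p = 0.258). The call of Cyp2c38 was lost in 14 of the 31 fits, up to an adjusted p of 0.171 without RIIIS/J.

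The largest differences in level came from genes that were near 0 in most strains of 1 set. Gldn, which encodes gliomedin, ranged from 0 to 25.3 CPM with a median of 1.03 in BXD strains and from 0 CPM (NOR/LtJ) to 1.81 CPM (DBA/2J) with a median of 0.0870 in classical strains (3.48 ± 0.52, edgeR adjusted p = 5.61e-07). 18 BXD strains were above every classical strain, while the parents had 1.74 and 1.81 CPM, the upper end of the classical range. Camk2b, a calcium- and calmodulin-dependent kinase subunit (chr11:5969644-6066362, minus strand), ranged from 2.52 to 44.5 CPM with a median of 29.3 in BXD strains and from 0 CPM (129X1/SvJ) to 34.7 CPM (CBA/J) with a median of 0.277 in classical strains (2.36 ± 0.40, adjusted p = 8.00e-06). 21 classical strains were under every BXD strain, at or under 0.759 CPM, and both parents were among the 10 expressing strains, C57BL/6J at 9.86 CPM and DBA/2J at 29.4 CPM. All 55 BXD strains lay at or over 2.52 CPM.

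Other genes with large positive differences were unlike in the parents. Mug2, a protease inhibitor of the macroglobulin family (chr6:122006761-122085965, plus strand), had 714 CPM in C57BL/6J and 40.7 CPM in DBA/2J. 32 BXD strains lay at or over 444.7 CPM and 23 at or under 130.5 CPM, while 28 classical strains lay at or under 144.8 CPM (1.91 ± 0.43, edgeR adjusted p = 0.000781). Vipr2, a receptor for vasoactive intestinal peptide, had 0 CPM in C57BL/6J and 3.33 CPM in DBA/2J. It was at or over 0.845 CPM in 30 BXD strains and at or under 0.36 CPM in 29 classical strains (2.97 ± 0.58, adjusted p = 0.000122). Acpp, a phosphatase, had 8.55 CPM in C57BL/6J and 0.476 CPM in DBA/2J (2.44 ± 0.48, adjusted p = 0.000141), and Eps8l1 had 2.62 and 0 CPM (2.29 ± 0.48, adjusted p = 0.000346). Adcy10, the soluble adenylyl cyclase, had 0.0872 CPM in C57BL/6J and 1.43 CPM in DBA/2J (2.02 ± 0.34, adjusted p = 1.01e-05).

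Fmo6, a flavin monooxygenase gene (chr1:162916551-162937515, plus strand), was near 0 in both parents (0 and 0.0951 CPM). 30 of 31 classical strains lay at or under 0.188 CPM, and I/LnJ had 5.86 CPM. BXD strains ranged from 0 to 13.6 CPM with a median of 0.620, and 29 of them were more than 2-fold above both parents on the log2(CPM) scale with a prior count of 2 (3.42 ± 0.62, edgeR adjusted p = 3.62e-05). Mup19, a major urinary protein gene of a family of close copies, and Sult3a1, a sulfotransferase, passed with wide errors. Mup19 had medians of 2.22 CPM in BXD and 2.41 CPM in classical strains, the lower median in BXD, although its fitted difference was 3.07 ± 0.91 (adjusted p = 0.0129), carried by highest values of 2947 and 272 CPM. The Mup19 value turned negative with the RwwJ strains alone (−0.013). Sult3a1 differed by 1.99 ± 0.71 (adjusted p = 0.0414) and lost its call in 12 of 31 fits that each left out 1 classical strain, with a largest adjusted p of 0.056 without BTBR T<+> tf/J.

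Genes with large negative differences were higher in some classical strains than in any BXD strain, or nearly so. Ceacam2, an adhesion protein of the carcinoembryonic antigen family (chr7:25516042-25539857, minus strand), ranged from 0 to 2.07 CPM with a median of 0.691 in BXD strains and from 0 CPM (NZW/LacJ) to 139 CPM (CE/J) with a median of 2.19 in classical strains (−5.30 ± 0.44, edgeR adjusted p = 3.50e-16). 16 classical strains were above every BXD strain, 12 of them at or over 23 CPM, and the parents had 0.174 and 0.951 CPM. Ankrd55 ranged from 0.790 to 13.5 CPM with a median of 3.06 in BXD strains and from 0.330 CPM (NZB/BlNJ) to 194 CPM (CBA/J) with a median of 10.6 in classical strains, 15 of which were above every BXD strain (−3.50 ± 0.33, adjusted p = 1.17e-13). Olfr1388 (−2.41 ± 0.23, adjusted p = 1.68e-13), Prrg1 (−2.45 ± 0.28, 1.31e-10) and Slc6a16 (−2.28 ± 0.34, 7.88e-07) were likewise highest in classical strains, at 25.4 CPM in RIIIS/J, 46.5 CPM in SWR/J and 53.2 CPM in I/LnJ.

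5 genes of that rank rested on 1 or a few strains. Afp, the fetal albumin, was 231 CPM in BALB/cJ against a classical median of 3.14 CPM. Its difference of −2.06 ± 0.31 (edgeR adjusted p = 9.01e-07) became −0.323 (adjusted p = 0.113) without that strain. Gpc3, a glypican of fetal liver, reached 128 CPM in BALB/cJ and moved from −2.40 ± 0.43 (adjusted p = 2.52e-05) to −0.245 (adjusted p = 0.628) without it. Dnah17, a dynein heavy chain, was 155 CPM in BALB/cByJ and moved from −2.56 ± 0.35 (adjusted p = 5.51e-08) to −0.318 (adjusted p = 0.0491) without it. Ces2h, a carboxylesterase, was 90.6 CPM in PL/J and kept its call without it (−3.39 ± 0.43 with all strains, −2.49 without PL/J). None of Afp, Gpc3, Dnah17, Ces2h and Cyp3a41a was called by the Welch comparison or on the log2(TPM + 1) scale.

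The second comparison was of the spread between strains. For each gene, the absolute distance of each strain's log2 CPM from the mean of its own set was compared between the sets with limma. The spread was smaller among BXD strains for 1278 genes (9.38% of 13620) and larger for 103 (0.756%) at a Benjamini-Hochberg adjusted p under 0.05. The SD of log2 CPM was lower among BXD strains in 10688 genes (78.5%), with a median ratio of BXD to classical SD of 0.837 and median SDs of 0.313 and 0.384. Genes called higher in BXD strains had a smaller spread in 263 cases (26.7%), and genes called lower in 180 cases (12.9%). NZB/BlNJ was the classical strain farthest from its set's median in 23.4% of all genes and in 30.7% of the 1278 genes, and BTBR T<+> tf/J in 7.39% and 11.1%. Without NZB/BlNJ, BTBR T<+> tf/J and FVB/NJ, 622 genes had a smaller spread among BXD strains and 85 a larger one.

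**Figure D2:**
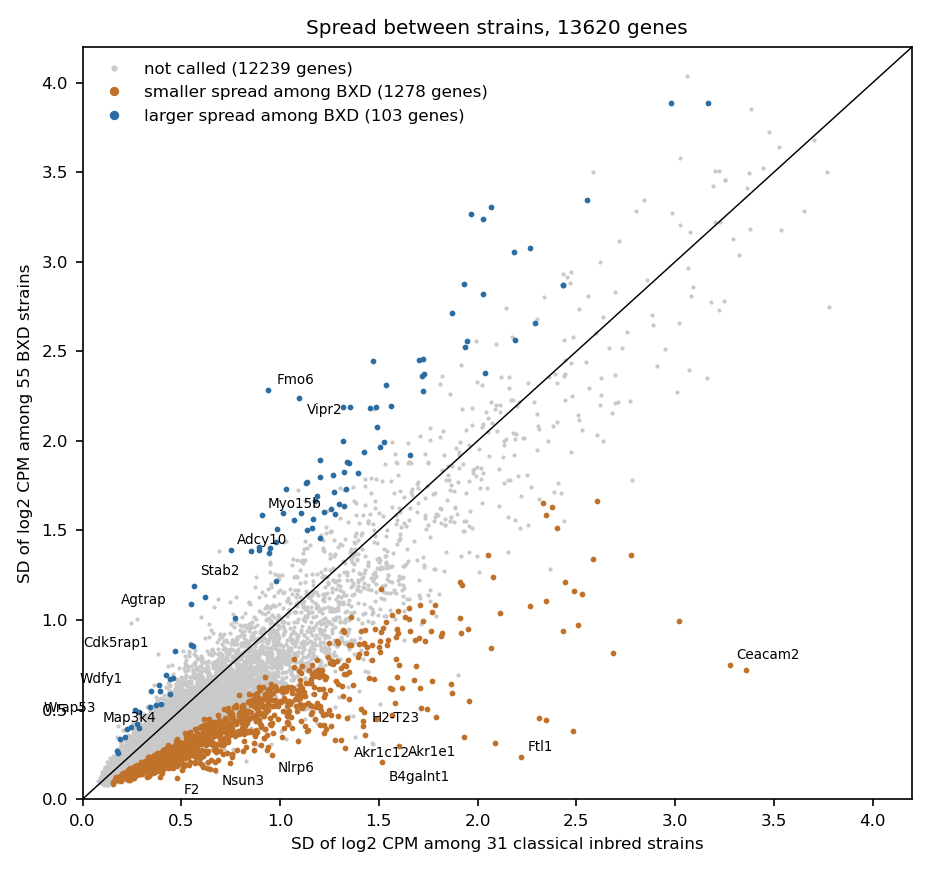
SD of log2 CPM among the 55 BXD strains (vertical axis) against the SD among the 31 classical strains (horizontal axis), 1 point a gene, with the line of equal SD. The 1278 genes with a smaller spread among BXD strains lie under the line, the 103 with a larger spread lie above it, and 12239 genes were not called.

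The parents' own values differed between these gene sets. To keep the parents out of the comparison, it was repeated without C57BL/6J and DBA/2J, which gave 1474 genes with a smaller spread among BXD strains (10.8% of 13645) and 124 with a larger one (0.909%). Of 123 genes with a larger spread and a value in the parents, 98 (79.7%) differed more than 2-fold between C57BL/6J and DBA/2J, and the median absolute log2 difference of the parents was 3.118. Over all genes tested 14.1% differed that much, with a median of 0.320, and among the genes with a smaller spread 11.3%, with a median of 0.317. C57BL/6J was the higher parent in 29 of the 98 genes and DBA/2J in the rest. The BXD mean lay between the parents in 94.3% of the genes with a larger spread and in 59.2% of all genes. A wider gap between the parents leaves more room for a mean to fall inside it. The 2 shares were not compared at an equal gap. These shares rest on 1 mouse of each parent.

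H2-Q2, a class I gene (chr17:35342242-35346762, plus strand), had a larger spread among BXD strains, in 2 groups of strains. C57BL/6J had 0.698 CPM and DBA/2J 46.7 CPM. 25 BXD strains lay at or under 1.83 CPM and 30 at or over 41.1 CPM, with none between, and classical strains ran from 0.420 to 53.8 CPM with a median of 20.6. The SD of log2 CPM was 2.88 among BXD and 1.93 among classical strains (ratio 1.49, limma adjusted p = 0.000178). The call of H2-Q2 was lost with deviations from the group median and with the Ty and TyJ strains alone. Mug2 had SDs of 2.19 and 1.35 (adjusted p = 7.19e-06). Agtrap, which binds the angiotensin receptor, was 10.3 CPM in C57BL/6J and 2.00 CPM in DBA/2J, the lowest of the classical strains. 11 BXD strains were under every classical strain, and the SDs were 1.09 and 0.55 (ratio 1.98, adjusted p = 6.80e-05).

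Wdfy1, a FYVE-domain protein of endosomes (chr1:79702262-79776143, minus strand), was low in C57BL/6J alone among classical strains, 12.7 CPM against 24.5 CPM or more in the other 30. 16 BXD strains lay at or under 15.2 CPM and 39 at or over 20.8 CPM (ratio 1.75, limma adjusted p = 0.00738). Vipr2 (ratio 2.05, adjusted p = 1.63e-08), Adcy10 (1.85, 0.00318) and Fmo6 (2.43, 8.06e-12) were among the genes with the largest ratios and were described above for their level. The ratio of Fmo6 was 6.08 without I/LnJ. Wrap53, a factor of telomerase assembly, ran from 1.51 to 7.95 CPM among BXD strains and from 3.00 to 6.70 CPM among classical strains (ratio 1.88, adjusted p = 0.00799). Myo15b ran from 0.414 to 30.4 CPM and from 1.19 to 22.6 CPM (ratio 1.75, adjusted p = 0.000912). Map3k4, a kinase of stress signalling, had a ratio of 1.79 at an adjusted p of 0.0473, which was lost in 46 of 86 fits without 1 strain, up to 0.0636 without KK/HlJ.

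In some genes the BXD strains spread although the parents were alike. Cdk5rap1, which modifies transfer RNA (chr2:154335380-154373010, minus strand), was 5.15 CPM in C57BL/6J and 4.57 CPM in DBA/2J. 15 BXD strains lay at or over 14.4 CPM, all more than 2-fold above both parents, and 40 lay at or under 9 CPM. Among classical strains NOR/LtJ had 20.5 CPM and the other 30 were at or under 9.21 CPM (ratio 1.76, limma adjusted p = 0.00144). Stab2, a scavenger receptor of liver sinusoidal endothelium (chr10:86841198-87008025, minus strand), was 109 CPM in C57BL/6J and 107 CPM in DBA/2J. BXD strains ran from 7.60 to 168 CPM with a median of 81.0, 12 of them under every classical strain and 15 more than 2-fold under both parents, while classical strains ran from 44.2 CPM (C57BLKS/J) to 216 CPM (NOD/ShiLtJ) with a median of 103 (ratio 2.11, adjusted p = 0.0138). Its lower level (−0.55 ± 0.19, edgeR adjusted p = 0.0311) lost the call without NOD/ShiLtJ (adjusted p = 0.0526). The 7 endothelial genes, Stab2 among them, summed to a median of 349.9 CPM in BXD and 388.6 CPM in classical strains, and Stab2 was the 1 gene of them with a call in spread. That call was lost with deviations from the group median, with squared deviations and with the Ty and TyJ strains alone. It was also absent on the log2(TPM + 1) and log2(TPM + 0.1) scales. At least 5 BXD strains lay more than 2-fold outside both parents in 30 of the 103 genes with a larger spread (29.1%), in 124 of the 1278 with a smaller spread (9.7%) and in 1592 of all genes tested (11.7%).

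**Figure D3:**
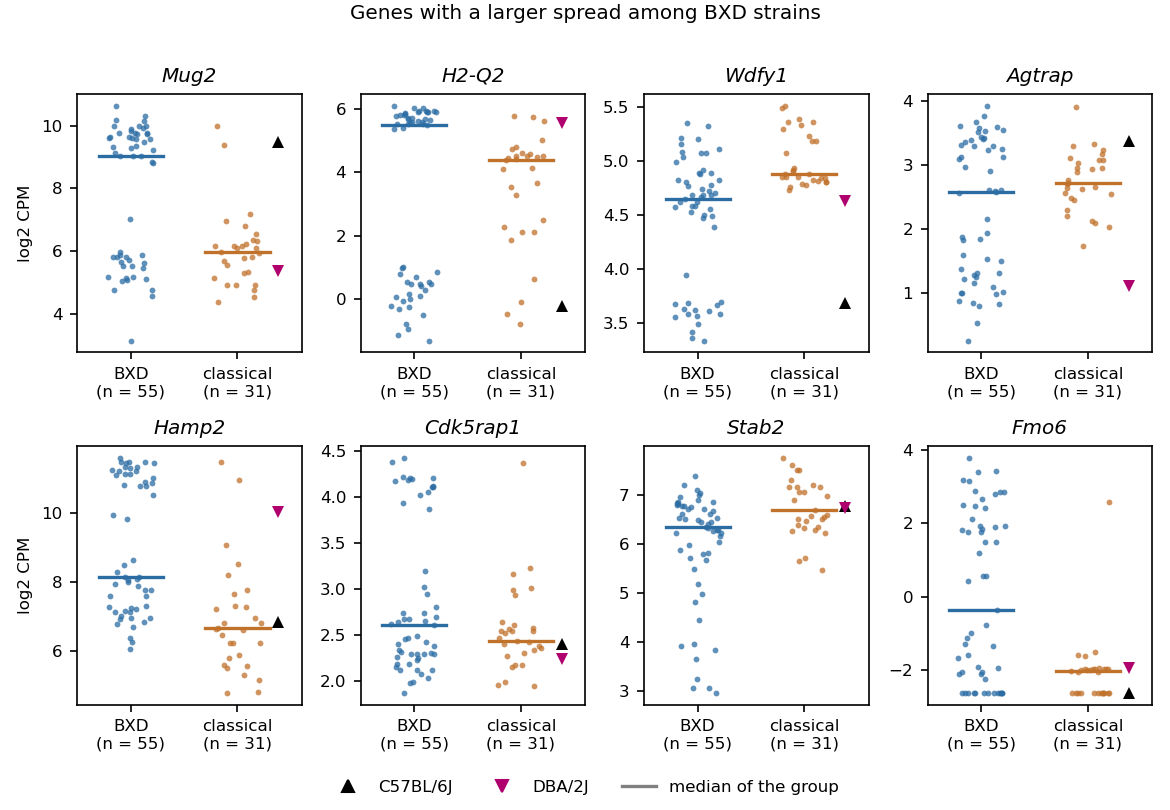
CPM on a log2 axis of 8 genes with a larger spread among BXD strains, 1 point a strain, BXD beside classical strains, with C57BL/6J and DBA/2J marked. H2-Q2 has 25 BXD strains at or under 1.83 CPM and 30 at or over 41.1 CPM, and Cdk5rap1 has 15 BXD strains at or over 14.4 CPM with both parents among the low strains.

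Several of the named genes with a smaller spread among BXD strains had few counts assigned to them in a few classical strains. Ftl1, the light chain of the iron store ferritin, had the smallest ratio of all named genes. It ranged from 2692 to 6172 CPM with a median of 4454 in BXD strains and from 32.4 CPM (SJL/J) to 6240.1 CPM (CE/J) with a median of 4158 in classical strains, with SDs of log2 CPM of 0.24 and 2.22 (ratio 0.106, limma adjusted p = 2.33e-05). 4 classical strains stood apart, SJL/J at 32.4 CPM, NZW/LacJ at 54.1 CPM, I/LnJ at 54.6 CPM and 129X1/SvJ at 56.3 CPM. The call was lost when distances were taken from the group median (adjusted p = 0.067).

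In those 4 strains a near-identical copy, Ftl1-ps1, had high counts, a comparison chosen after the values were seen. Ftl1-ps1 (chr13:74399694-74407346, plus strand) was 2788 CPM in SJL/J, 3965 CPM in NZW/LacJ, 3838 CPM in I/LnJ and 3728 CPM in 129X1/SvJ. In the BXD strains Ftl1-ps1 ran from 17.5 to 60.8 CPM with a median of 37.9. The summed CPM of the pair ran from 2711 to 6232 CPM in BXD strains and from 2820 to 6287 CPM in classical strains, with SDs of log2 CPM of 0.236 and 0.257. Whether reads were assigned to the right copy was not tested. The pair are almost the same in their coding part, with 2 differences over a coding sequence of equal length (99.6% identity) in GENCODE M21 on GRCm38. The transcripts were not compared outside the coding part. Bases 438 to 534 of the coding sequences of the gene (chr7:45457944-45459884, minus strand) and of its copy hold both differences, in capitals:
Ftl1: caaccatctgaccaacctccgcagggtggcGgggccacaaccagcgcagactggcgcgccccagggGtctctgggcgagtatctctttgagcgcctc
Ftl1-ps1: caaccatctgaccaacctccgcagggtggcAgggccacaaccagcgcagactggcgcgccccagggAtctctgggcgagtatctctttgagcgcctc

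**Figure D4:**
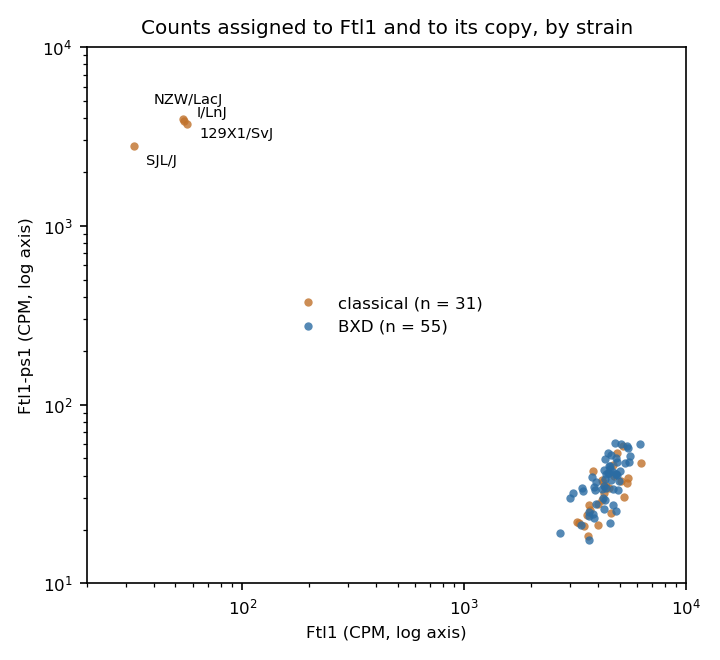
CPM of Ftl1 (horizontal axis) and Ftl1-ps1 (vertical axis) on log axes, 1 point a strain. All 55 BXD strains and 27 classical strains sit at high Ftl1 and low Ftl1-ps1, and SJL/J, NZW/LacJ, I/LnJ and 129X1/SvJ sit at 32.4 to 56.3 CPM of Ftl1 and 2788 to 3965 CPM of Ftl1-ps1.

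B4galnt1, a ganglioside synthase (chr10:127165225-127172330, plus strand), ranged from 82.0 to 162 CPM with a median of 111 in BXD strains. NOD/ShiLtJ (2.79 CPM) and 2 further classical strains lay at or under 4.04 CPM, and the other 28 at or over 79 CPM (ratio 0.135, limma adjusted p = 0.00201). The aldo-keto reductases Akr1e1 and Akr1c12 lie near each other on chromosome 13. Akr1e1 ranged from 15.4 to 35.7 CPM with a median of 27.9 in BXD strains and from 0.676 CPM (SJL/J) to 35.6 CPM (C57BLKS/J) with a median of 17.01 in classical strains, 15 of which were under every BXD strain (ratio 0.185, adjusted p = 1.03e-15). Akr1c12 ran from 21.9 to 57.6 CPM in BXD strains and from 2.10 to 55.7 CPM in classical strains (ratio 0.213, adjusted p = 2.32e-07). Ceacam2, described above, had a ratio of 0.228 (adjusted p = 2.39e-21).

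Among the other genes with the smallest ratios, H2-T23, which encodes Qa-1, ranged from 107 to 314 CPM with a median of 204 in BXD strains and from 7.91 CPM (NZB/BlNJ) to 263 CPM (BALB/cByJ) with a median of 133 in classical strains. 14 classical strains were under every BXD strain (ratio 0.250, limma adjusted p = 1.03e-15). Nsun3, a methyltransferase of mitochondrial transfer RNA, was 11.6 to 20.1 CPM in BXD strains and fell to 2.90 CPM in LG/J (ratio 0.238, adjusted p = 0.000152). Nlrp6, an inflammasome sensor, fell to 8.25 CPM in NZW/LacJ against 92.7 to 228 CPM in BXD strains (ratio 0.254, adjusted p = 0.000399). F2, prothrombin, was 344.7 CPM in NZB/BlNJ and 1258 to 1803 CPM in BXD strains, and its ratio of 0.247 (adjusted p = 0.0119) rose to 0.411 without NZB/BlNJ.

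**Figure D5:**
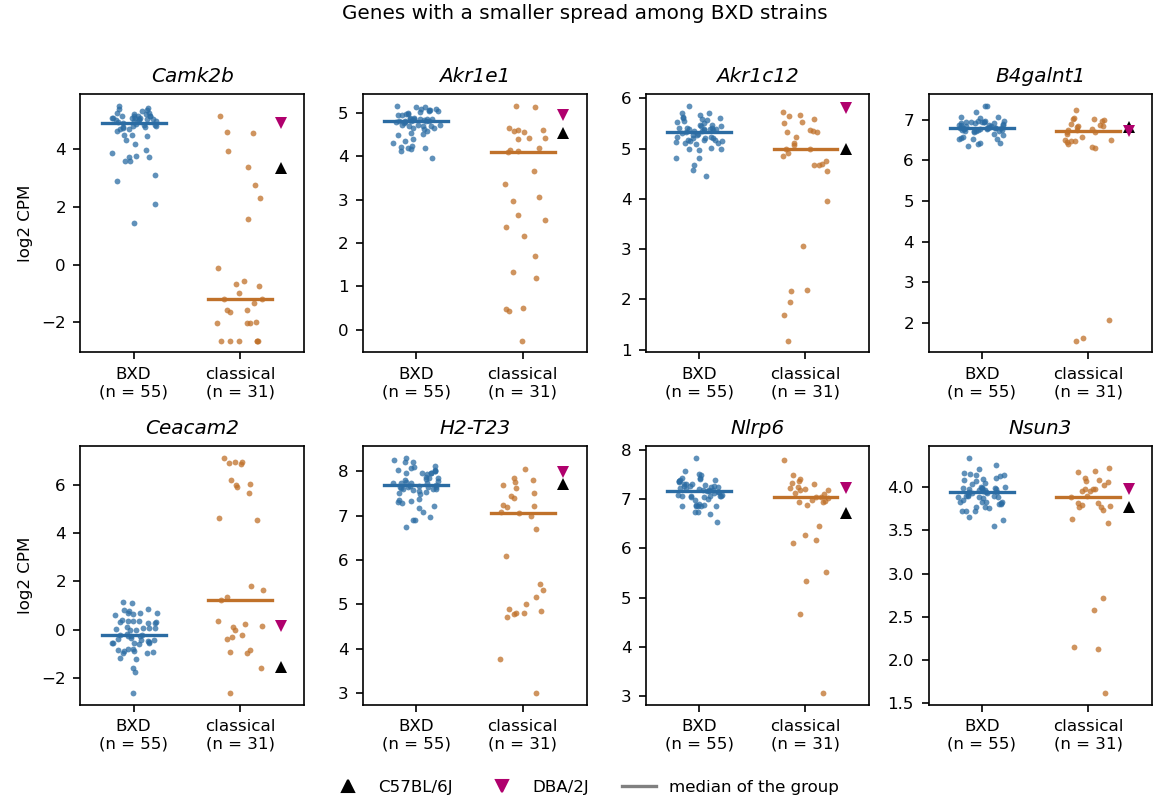
CPM on a log2 axis of 8 genes with a smaller spread among BXD strains, 1 point a strain, BXD beside classical strains, with C57BL/6J and DBA/2J marked. In Akr1e1, 15 classical strains lie under every BXD strain, and in H2-T23 14 do, and both parents lie with the BXD strains for both genes.

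By gene group, 9 of the 23 H2 and B2m genes and 14 of the 53 cytochrome P450 genes had a smaller spread among BXD strains, where 9.38% of all genes did. Besides H2-T23 these included H2-T22 (ratio 0.324, limma adjusted p = 2.57e-12) and H2-D1 (0.487, 0.00459), and H2-Q2 was the 1 gene of the H2 and B2m list with a larger spread. H2-Ke6, not a class I gene, was among the 9 with a smaller spread. Cyp2a12 ranged from 228 to 608 CPM with a median of 411 in BXD strains and from 17.1 CPM (NOD/ShiLtJ) to 641 CPM (A/J) with a median of 294 in classical strains (ratio 0.256, adjusted p = 1.26e-05). Cyp2e1, which oxidises ethanol, ran from 1887 to 6444 CPM in BXD strains and from 532 CPM in NZB/BlNJ to 9528 CPM in BALB/cByJ (ratio 0.376, adjusted p = 1.24e-05). Cyp2b9 fell to 0.242 CPM in 129X1/SvJ and to 11.5 CPM among BXD strains (ratio 0.329, adjusted p = 4.76e-05). 6 of 24 cholesterol genes had a smaller spread, Tm7sf2 with the smallest ratio (0.535, adjusted p = 0.0137), and 5 of 28 interferon genes, among them Oas2 (0.462, 0.0318, and 0.129 without NZB/BlNJ), Ifi27 (0.533, 0.00310) and Ifit3 (0.589, 0.00618). Without NZB/BlNJ, BTBR T<+> tf/J and FVB/NJ the counts were 5 for H2 genes, 11 for cytochromes, 0 for cholesterol genes and 3 for interferon genes. In the same order they were 8, 11, 2 and 3 with deviations from the group median. With the RwwJ strains alone they were 6, 11, 0 and 2, and with the Ty and TyJ strains alone 2, 4, 1 and 1.

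Of 33 iron genes, 3 had a smaller spread among BXD strains, near the share over all genes (9.38%). They were Ftl1, Nqo1, a quinone reductase that NRF2 induces (ratio 0.536, limma adjusted p = 0.0117), and Hfe2 (0.549, 0.0184). The summed CPM of Ftl1 and Ftl1-ps1 had SDs of log2 CPM of 0.236 in BXD and 0.257 in classical strains. Smad7, an inhibitor of BMP signals that iron induces, ran from 25.1 to 81.1 CPM with a median of 54.2 in BXD strains and from 10.9 CPM (BALB/cByJ) to 73.9 CPM (129X1/SvJ) with a median of 48.02 in classical strains (ratio 0.594, adjusted p = 0.0445). The Smad7 call was lost in 29 of 86 fits that each left out 1 strain, up to an adjusted p of 0.161 without BALB/cByJ. Hamp itself had SDs of 0.34 and 0.55 and Bmp6 of 0.50 and 0.66, and neither passed (adjusted p = 0.201 and 0.236). 3 classical strains and no BXD strain lay more than 2-fold from their set's median of Hamp. 1 of the 13 mitochondrial genes, mt-Atp6, had a smaller spread (ratio 0.636, adjusted p = 0.0373, and 0.0994 without NZB/BlNJ). The 4 Y-linked genes had ratios from 0.499 (Eif2s3y) to 0.646 (Kdm5d), with adjusted p-values from 0.0697 to 0.221.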

How the data were processed

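Libraries were made from total RNA of liver with a stranded mRNA kit, per the labels' protocols. Per the submitters' processing notes, reads were quantified with kallisto 0.46 and the build was mm10. The deposited tables hold estimated counts per Ensembl gene (35711 genes) and TPM values made by the authors. 35691 gene identifiers matched GENCODE M21 on GRCm38, which gave names, coordinates and coding sequences. The tests had been planned for whole counts, so the estimated counts were rounded. How strain differences in sequence affect counting against 1 reference was not tested.

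Levels of 55 BXD and 31 classical libraries were compared with edgeR 4.0.16 (TMM factors, filterByExpr, robust quasi-likelihood test, SE as the log2 difference divided by the root of F) under R 4.3.3. Spread was compared with limma 3.58.1 (trend, robust) on absolute deviations of log2 CPM (prior count 2) from the mean of the own set, each scaled by the root of n/(n − 1), a Levene-type test. Benjamini-Hochberg adjustment ran over all 13620 genes, and genes were called at an adjusted p under 0.05. Both fits were checked on data with known changes in 200 genes. Gene lists are described by counts and medians, with no test of a list. An interval without strains is the widest gap on the log2 scale between neighbouring strains of a set.

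Alternatives, described in the closing section, were DESeq2 1.42.0, RLE factors, other filters, a Welch test, limma on log2(TPM + 1) and log2(TPM + 0.1), deviations from the median, squared deviations, subsets of strains and leaving out each strain. The subset without NZB/BlNJ, BTBR T<+> tf/J and FVB/NJ and the leave-out of each strain in level were chosen after seeing the data.

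The members and the gene lists were chosen with earlier results of these data known. Named genes are the 10 largest differences in each direction in level (mean of at least 1 CPM in the higher set), the 10 largest and 10 smallest ratios of SD (mean of at least 1 CPM), passing over predicted genes and pseudogenes, and called members of the lists, at most 6 a list by size, plus Hamp, Hamp2, Bmp6, the Y-linked and the mitochondrial genes. Some genes that this rule names are not reported here. Tables of the separate diet study in the series were not used here. Library totals of 9407880 to 20572879 counts limit precision for genes of few CPM.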

Additional observations from a re-analysis of the deposited data

How the results depend on the processing

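The number of genes called in level was 2380. It moved to 1495 with a mean of at least 10 CPM, to 991 with the Ty and TyJ strains alone, to 1318 with the RwwJ strains alone, to 1538 without NZB/BlNJ, BTBR T<+> tf/J and FVB/NJ, to 1526 on log2(TPM + 1) and to 1516 on log2(TPM + 0.1), where 72.6% of calls were higher. Leaving out each classical strain gave 1975 (BTBR T<+> tf/J) to 2695 (C57BLKS/J). The 1381 genes called in spread became 3791 with no low-count filter, 901 with at least 10 CPM, 219 with the Ty and TyJ strains, 812 with the RwwJ strains, 707 without the 3 strains named above and 835 with deviations from the median. Leaving out each strain gave 1026 (NZB/BlNJ) to 1555 (BXD38/TyJ). Fewer strains or genes enter the subset and filter fits; otherwise the cause was not tested. Counts stayed within 1.5 times of these with RLE factors (2376 and 1407), without the parents (2713 and 1598), without C57BL/6J, C57BLKS/J, C57L/J and C58/J in level (2875), with BXD65 kept (2431 and 1487) and with the other 129X1/SvJ mouse (2335 and 1450). DESeq2 called 2528 genes in level and gave no adjusted p for Afp, Ces2h, Cyp3a16, Cyp3a41b, Dnah17, Gpc3 and Orm2.

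Among the named genes, 4 differences changed sign: Mki67 (0.0811), Top2a (0.0651) and Slc4a1 (0.0277) without NZB/BlNJ, BTBR T<+> tf/J and FVB/NJ, and Mup19 (−0.013) with the RwwJ strains alone. No paired analysis was possible because each strain gave 1 mouse and no replicate number links BXD to classical strains. Depth limits the genes of about 1 CPM most.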

Other observations

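Over all genes tested, 7.22% were higher in BXD strains, 10.2% were lower and 9.38% had a smaller spread. Of 18 major urinary protein genes, which are male-biased products of the liver, 1 was called in level and none in spread. Their mean log2 CPM ran from −1.6 (BXD51/RwwJ) to 7.942 (BXD14/TyJ) among BXD strains and from −1.869 (BALB/cJ) to 7.076 (DBA/2J) among classical strains. 2 of 15 male-biased genes were lower in BXD strains, near the share over all genes. They were the organic anion transporter Slco1a1 (−1.47 ± 0.39, edgeR adjusted p = 0.00535) and Susd4 (−1.14 ± 0.41, 0.0396, and 0.152 without NZW/LacJ). Among 18 female-biased genes 1 was higher and 3 were lower in edgeR, a split that depended on the test: 2 were higher and 1 lower in DESeq2, and 1 was higher and 0 lower both in the Welch comparison and on log2(TPM + 1). The circadian list gave no call in level among 17 genes and 1 smaller spread. Among 21 macrophage genes Spp1, which encodes osteopontin, was lower (−0.44 ± 0.16, adjusted p = 0.0413), a call lost in 10 of 31 fits that each left out 1 classical strain, up to an adjusted p of 0.139 without KK/HlJ. Clec4f, a lectin of Kupffer cells, had a smaller spread among BXD strains (ratio 0.625, limma adjusted p = 0.0362, and 0.0737 without NZB/BlNJ).

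A list of 27 genes known to vary between mouse strains gave 4 higher and 1 lower call in level and 2 smaller spreads, where 7.22% of all genes were higher, 10.2% lower and 9.38% had a smaller spread. Without NZB/BlNJ, BTBR T<+> tf/J and FVB/NJ 2 were higher and 1 was lower. Pctp, a phosphatidylcholine transfer protein, was higher in BXD strains (0.72 ± 0.16, edgeR adjusted p = 0.000936) and had a smaller spread (ratio 0.670, limma adjusted p = 0.0445), the latter lost in 31 of 86 fits that each left out 1 strain, up to an adjusted p of 0.128 without BTBR T<+> tf/J. Apoa2, an apolipoprotein of high-density lipoprotein, ran from 1333 to 3142 CPM in BXD strains and from 672 CPM in NZB/BlNJ to 3977 CPM in CE/J (ratio 0.481, adjusted p = 0.0144). By chromosome, the share of genes called in level was highest among autosomes on chromosome 1 (21.4%). Smaller spreads were most frequent on chromosome 17 (12.2%), followed by chromosome 13 (11.7%) and chromosome 19 (10.5%). Chromosome 17 carries the H2 complex, whose part in that share was not tested.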
